A study of Mus musculus with 6 samples.

Results

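The enzymes that make, degrade and respond to cyclic AMP (cAMP), the regulator of G protein signalling (RGS) proteins and the receptors Vipr1 and Vipr2 were followed in mouse myoblasts with and without transforming growth factor beta (TGFb). Members were found by gene name, by a rule that uses no measured value but was written with earlier results of these data known. They were all Rgs genes, all adenylyl cyclases (Adcy), all phosphodiesterases named Pde plus a number and a letter from a to d, the catalytic and regulatory subunits of protein kinase A (Prkac and Prkar), and the 2 receptors, which were added by name. The rule found 61 genes, measured by 101 of the 55681 probes on the array. Of these genes, 46 were bright enough to be tested, among 21960 genes tested in all.

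The cells were primary myoblasts, the precursors of muscle fibres, from skeletal muscle of 3-month-old male C57BL/6 mice. They were isolated by flow cytometry and grown in serum-containing medium, and TGFb, a secreted factor with a central role in fibrosis, was given for 4 days. The comparison was of 3 TGFb arrays with 3 untreated arrays, each hybridised with Cy3-labelled RNA on a 1-colour Agilent array. The sources used here give no dose or isoform of TGFb, no sort markers and no number of animals. The labels call the samples independent biological replicates. P-values measure only the spread between these samples.

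Cyclic AMP is a second messenger. Receptors such as the VIP and PACAP receptors activate the stimulatory G protein, which turns on adenylyl cyclases at the cell membrane. Phosphodiesterases break the messenger down, and protein kinase A is its main target, acting among others on the transcription factor CREB. RGS proteins speed up GTP hydrolysis by G protein alpha subunits, mostly those of the Gi and Gq classes, and so shorten receptor signals. In skeletal muscle, cAMP signalling is known for effects on myoblast fusion, metabolism and muscle mass.

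Values are log2 processed intensity minus the 75th percentile of the array, so 0 is the level of that percentile and a step of 1 is a doubling. A probe's value was compared only with its own value on other arrays. The 75th percentile itself was 876 to 1569 intensity units, and 52.0% to 56.7% of spots were well above background on each array. The arrays were scanned on 2 days. Scan day 1 covered the TGFb array 1 with the untreated arrays 1 and 2, while the other 3 arrays belonged to scan day 2. In a principal component analysis of all genes, scan days split along the first component (72.4%) and groups along the second (16.3%). Each comparison is therefore given from limma fits without and with scan day as a term. Differences within each day stand beside them, from 1 TGFb and 2 untreated arrays on day 1 and from 2 TGFb arrays and 1 untreated array on day 2. The file names number untreated arrays 1 and 2 alike, and these were the most similar pair, with an SD of differences over genes of 0.33 against 0.73 for TGFb arrays 2 and 3. They were kept apart because the labels call them separate replicates, and whether they share a culture is not known. With the pair averaged to 1 sample, 1 member rose and 3 fell in the fit with scan day, against 5 and 6 with the pair kept apart. Over all genes the counts dropped too, to 323 and 351 from 1011 and 1216.

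The promoters of 3 genes on which the results turn are shown. They are Vipr2, which had the largest change, and the chromosome 1 neighbours Rgs4 and Rgs5. Both of these rose in the fit with scan day only, and scan day moved their representing probes in opposite directions. Each is the 250 bases before the start site in RefSeq (assembly GRCm38.p6), read 5′ to 3′ on the gene's strand. Capitals mark TGACG, the core of the cAMP response element that CREB binds (CGTCA on the other strand), and CAGAC, the box that SMAD proteins of the TGFb pathway can bind (GTCTG on the other strand). Vipr2 lies on the plus strand at chr12:116077476-116077725, Rgs4 on the minus strand at chr1:169747643-169747892 and Rgs5 on the plus strand at chr1:169655251-169655500.
Vipr2: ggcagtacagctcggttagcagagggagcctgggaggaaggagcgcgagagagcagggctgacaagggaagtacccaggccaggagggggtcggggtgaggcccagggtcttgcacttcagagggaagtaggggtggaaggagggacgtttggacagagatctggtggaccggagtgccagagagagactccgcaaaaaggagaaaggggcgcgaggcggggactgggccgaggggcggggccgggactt
Rgs4: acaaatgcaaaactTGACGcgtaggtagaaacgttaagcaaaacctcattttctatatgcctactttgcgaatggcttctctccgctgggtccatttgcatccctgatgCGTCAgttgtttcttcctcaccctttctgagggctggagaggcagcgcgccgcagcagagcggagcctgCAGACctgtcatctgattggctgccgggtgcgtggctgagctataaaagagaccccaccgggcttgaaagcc
Rgs5: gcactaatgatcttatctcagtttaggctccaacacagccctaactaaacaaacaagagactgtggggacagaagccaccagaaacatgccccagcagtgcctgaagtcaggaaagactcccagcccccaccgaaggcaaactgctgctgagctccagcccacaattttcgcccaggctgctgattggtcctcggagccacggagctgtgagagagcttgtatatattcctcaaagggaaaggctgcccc
The Rgs4 promoter held TGACG at 2 places and CAGAC at 1, whereas these letters were in neither the Vipr2 nor the Rgs5 window. Promoters were listed for 47 of the 61 members, 90 windows in all. TGACG was in 20.0% of these windows and in 17.8% of 32851 windows over all genes. CAGAC was in 34.4% against 42.2%, and the full element TGACGTCA, which contains TGACG, in 1.11% against 1.55%. The palindrome GTCTAGAC was in none of the 90 and in 0.167% of all windows. A match is only a run of letters, and binding was not measured.

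Without scan day in the fit, 2 members fell and 0 rose of 46 tested (4.35%), where 1.4% of all genes tested passed the threshold (limma, adjusted p under 0.05). Over all genes 0.697% rose and 0.701% fell. The members that fell were Vipr2 and Adcy8, the latter tested only because its untreated arrays were bright enough. With scan day as a term, 5 members rose and 6 fell (23.9%), against 10.1% of all genes, 4.6% rising and 5.54% falling. The members that rose were Rgs4, Rgs5, Rgs17, Adcy7 and Pde3b, and those that fell were Vipr2, Adcy8, Adcy1, Prkaca, Rgs8 and Pde1a. The median log2 change of the tested members was 0.10 without and 0.0084 with scan day, where it was 0.049 and 0.044 over all genes. The members did not shift in a single direction.

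The groups did not overlap for 14 of the 46 tested members (30.4%), 6 with all TGFb arrays higher and 8 with all TGFb arrays lower. Over the 21837 genes with a value on every array this held for 18.0%, 8.44% higher and 9.52% lower. The difference had the same sign on both scan days in 36 of the 46, where this held for 67.9% of the 21837 genes. The other 35 tested members passed in neither fit, with log2 changes from -1.12 to 1.10 with scan day. Among the 15 genes not tested, 10 had a representing probe that was not well above background on any array, among them Adcy5, Adcy10, Pde8a, Pde8b and Rgs6.

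**Figure D1:**
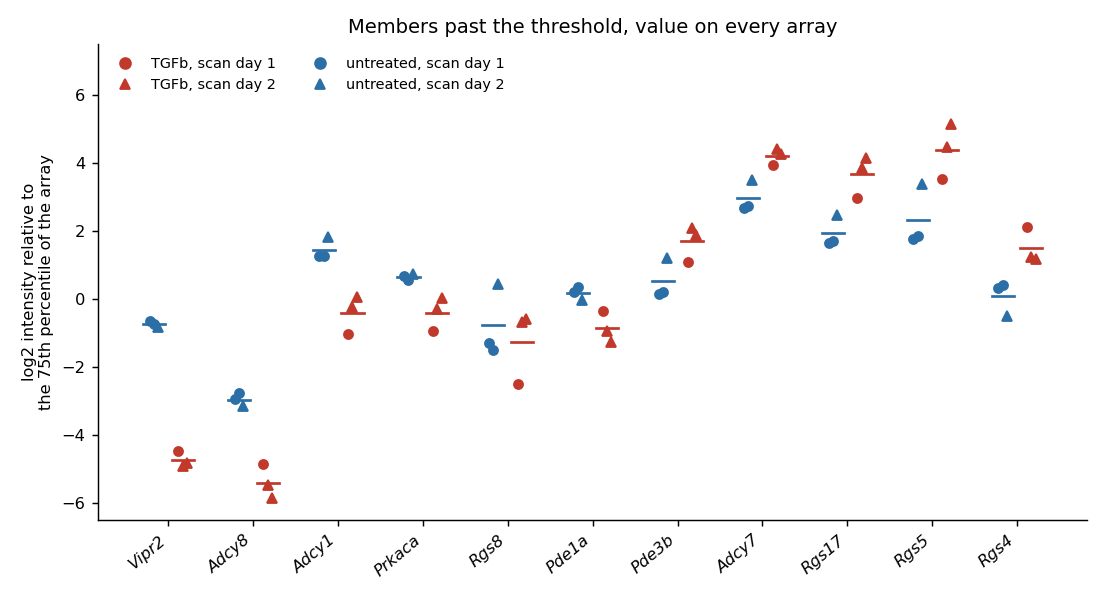
Values on every array of the 11 members that passed the threshold in the fit with scan day, as log2 intensity relative to the 75th percentile of the array; red is TGFb, blue is untreated, circles are scan day 1, triangles scan day 2 and bars the group means. All 3 TGFb arrays of Vipr2 sit between -4.93 and -4.47, below the untreated arrays at -0.82 to -0.64.

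Vipr2, the VPAC2 receptor for the neuropeptides VIP and PACAP, showed the largest change of the module. Its values were -4.47, -4.93 and -4.83 on the TGFb arrays and -0.64, -0.75 and -0.82 on the untreated arrays. The groups were far apart, and the arrays within each group lay close together whatever their scan day. Vipr2 fell by 4.01 on the log2 scale (± 0.26 SE, n = 3 per group; limma adjusted p = 0.00917), a 16.1-fold difference. The TGFb values were well above background but not far over the dimmest such signal of their arrays (-5.43, -5.21 and -5.17). In normalized values deposited by the authors the change was -2.64 (limma adjusted p = 0.000131), so the size of the fall depended on the processing. When scan day was added the change was -3.92 ± 0.15 (limma adjusted p = 0.00149), and within days it was -3.78 and -4.06. The probe lies on chromosome 12 at 117384455 to 117384514 (mm9). The call without scan day was lost when TGFb array 2 or 3, or untreated array 1 or 2, was left out (limma adjusted p up to 0.125, change -4.15 to -3.92). With scan day it held in all 6 such fits (highest adjusted p 0.0254).

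The other 2 Vipr2 probes were dim. On the probe at 117333207 to 117333266, untreated values were -5.43, -5.36 and -5.33 and TGFb values -7.50, -7.43 and -7.37. It was well above background on 2 untreated arrays and on no TGFb array, so its TGFb level is known only as below background. The probe at 117382899 to 117382958 was not well above background on any array. Fewer Vipr2-expressing cells and less Vipr2 RNA per cell cannot be told apart in bulk RNA, here or for any other gene.

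Vipr1, the VPAC1 receptor for the same peptides, changed less. TGFb values were -2.13, -1.08 and -0.88, and untreated values -1.17, -1.38 and -0.37, so the groups overlapped. The change was -0.39 ± 0.46 without scan day (limma adjusted p = 0.784) and -0.73 ± 0.16 with it (limma adjusted p = 0.0511), just short of the threshold. The dimmer Vipr1 probe gave 0.53 ± 0.22 in the other direction with scan day (limma over all probes, adjusted p = 0.205), so the direction for Vipr1 depended on the probe.

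**Figure D2:**
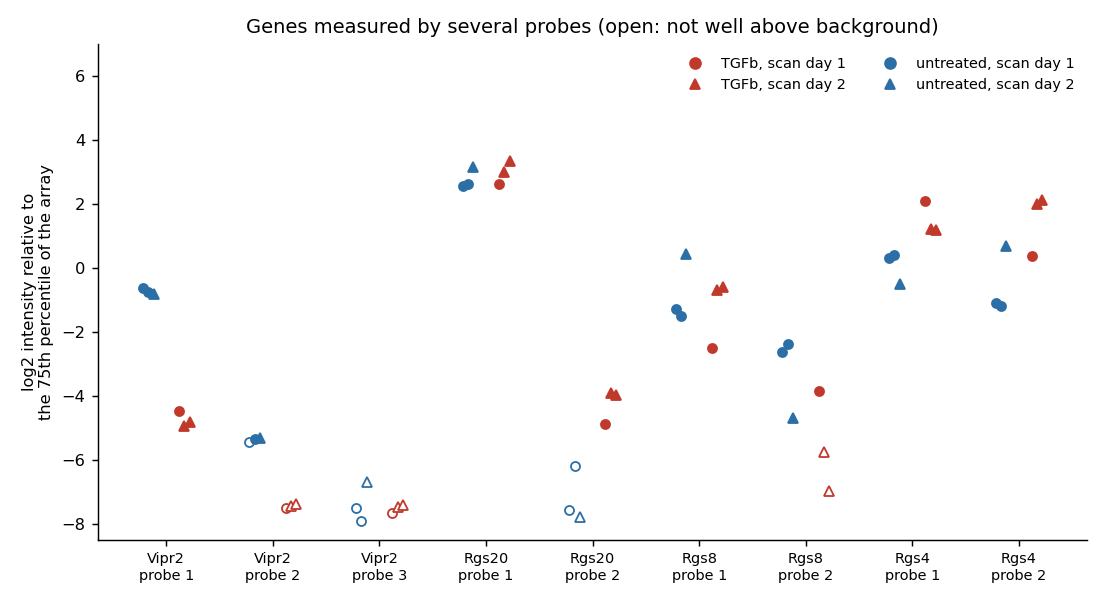
Values of the separate probes of Vipr2, Rgs20, Rgs8 and Rgs4 on every array, in log2 intensity relative to the 75th percentile; open symbols are spots not well above background, red is TGFb, blue untreated, circles scan day 1 and triangles scan day 2. The Rgs20 probes disagree: the brighter overlaps between groups, and the dimmer is above background on the 3 TGFb arrays only.

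Among the adenylyl cyclases, 8 of 10 were tested, and the members that passed moved in both directions. The calcium- and calmodulin-stimulated isoforms Adcy1 and Adcy8 fell, and Adcy7, an isoform that G protein beta-gamma subunits can stimulate, rose. The classes were not uniform: Adcy3, also calcium-stimulated, had a change of 0.65 and Adcy2, also beta-gamma-stimulated, of -1.12 with scan day, and neither passed. In 6 of the 8, the dim Adcy8 included, the groups did not overlap, against 18.0% of all genes. All 8 had the same sign on both days, against 67.9%.

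Adcy8 values were -4.87, -5.49 and -5.86 on TGFb arrays and -2.96, -2.78 and -3.16 on untreated arrays. All TGFb values were lower, but only 1 of these 3 was well above background, whereas all untreated values were. Without its untreated arrays, where it was high, Adcy8 would not have met the rule of at least 3 such arrays for testing. Its p-values and its place among the calls carry that limit. Adcy8 fell by 2.44 on the log2 scale (± 0.34 SE, n = 3; limma adjusted p = 0.0336), and with scan day the change was -2.26 ± 0.20 (limma adjusted p = 0.00466), with -2.00 on day 1 and -2.52 on day 2. With the TGFb values below background set to the dimmest signal that counts as well above it on their array, an alternative chosen after seeing the data, the difference was -2.12. With normexp background correction and quantile normalization it was -1.14 (limma adjusted p = 0.0401), so the direction held but the size depended on how background was treated. Without scan day the call was lost whichever array was left out (limma adjusted p 0.0523 to 0.209). With scan day it was lost without untreated array 3 (adjusted p = 0.0596).

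Adcy1 values were -1.02, -0.25 and 0.06 with TGFb and 1.25, 1.26 and 1.82 without. The groups did not overlap, and both were lower on day 1 than on day 2. The change was -1.85 ± 0.38 without scan day, which did not pass (limma adjusted p = 0.103). With scan day Adcy1 fell by 2.09 ± 0.17 (limma adjusted p = 0.00363), a 4.27-fold difference, with -2.28 and -1.91 within days, and the call held whichever array was left out (highest adjusted p 0.0446).

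Adcy7 values were 3.94, 4.41 and 4.28 on the TGFb arrays, all above the untreated values of 2.67, 2.74 and 3.51. The change of 1.24 ± 0.33 did not pass without scan day (limma adjusted p = 0.203). With scan day Adcy7 rose by 1.04 ± 0.16 (limma adjusted p = 0.0201), with 1.24 and 0.84 within days. That call was lost without TGFb array 1 or any of the untreated arrays (change 0.84 to 1.24, adjusted p up to 0.110).

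Adcy6, a calcium-inhibited isoform, overlapped between groups, with TGFb values of 2.17, 2.77 and 3.09 and untreated values of 2.46, 2.43 and 3.22. Its change with scan day was -0.28 ± 0.16 (limma adjusted p = 0.316). Adcy2 (-1.12, adjusted p = 0.0968), Adcy9 (-0.74, adjusted p = 0.0682) and Adcy3 (0.65, adjusted p = 0.131) had groups that did not overlap but did not pass in limma with scan day.

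Phosphodiesterases made up 22 of the members, of which 15 were tested. With scan day Pde3b rose, Pde1a fell and 13 did not pass. The share called was 13.3%, near the 10.1% over all genes. The median log2 change with scan day was 0.013.

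Pde3b, which hydrolyses cAMP and is inhibited by cGMP, had values of 1.10, 2.09 and 1.89 with TGFb and 0.16, 0.21 and 1.21 without. The highest untreated array, from day 2, lay above the lowest TGFb array, from day 1, although within each day all TGFb values were higher. The change was 1.17 ± 0.43 without scan day (limma adjusted p = 0.377), and Pde3b rose by 0.85 ± 0.15 with it (limma adjusted p = 0.0259). Within days the differences were 0.91 and 0.78.

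Pde1a, a calcium- and calmodulin-stimulated enzyme that acts on both cAMP and cGMP, had values of -0.36, -0.95 and -1.26 with TGFb and 0.19, 0.34 and -0.05 without. The groups did not overlap. Without scan day the change was -1.02 ± 0.32 (limma adjusted p = 0.282). With scan day Pde1a fell by 0.84 ± 0.18 (limma adjusted p = 0.0497), at the threshold, with -0.63 and -1.05 within days.

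Both calls were lost in several fits that left out 1 array, as were many calls over all genes. That of Pde3b was lost without TGFb array 1 or any untreated array (change 0.78 to 0.91, limma adjusted p up to 0.144). That of Pde1a held only without TGFb array 3 (change -1.05 to -0.63 over the 6 fits, limma adjusted p up to 0.301).

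The Pde4 enzymes, which are selective for cAMP, showed no call in the scanner values. Pde4b values were 0.38, -0.75 and -0.49 with TGFb and 0.17, 0.35 and -1.004 without, a change with scan day of 0.25 ± 0.16 (limma adjusted p = 0.385). Pde4d values were 1.21, 1.09 and 2.17 against 0.41, 0.81 and 1.52, a change of 0.35 ± 0.35 (limma adjusted p = 0.572). Pde4c read 5.80, 7.67 and 7.81 against 5.21, 5.61 and 7.39. Both its groups were higher on day 2, and its change was 1.02 ± 0.79 without and 0.37 ± 0.17 with scan day (limma adjusted p = 0.713 and 0.246).

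Pde2a, a cGMP-stimulated enzyme, read 2.71, 4.95 and 5.69 with TGFb and 3.27, 3.07 and 4.86 without. Its values followed scan day, with differences of opposite sign within days (-0.45 and 0.46) and a change of 0.0039 ± 0.31 with scan day (limma adjusted p = 0.996). The photoreceptor genes Pde6a, Pde6b and Pde6c were not tested. Pde6d, which the name rule includes, encodes a prenyl-binding protein and not a catalytic subunit.

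All 6 protein kinase A subunits were tested and well above background on all 6 arrays. With scan day 1 of them passed, where 10.1% of all genes did. Prkaca, the main catalytic subunit, read -0.95, -0.29 and 0.02 with TGFb and 0.67, 0.55 and 0.74 without. All TGFb arrays were lower than all untreated arrays. The change was -1.06 ± 0.33 without scan day (limma adjusted p = 0.268), and Prkaca fell by 1.21 ± 0.22 with it (limma adjusted p = 0.028), with -1.55 and -0.88 within days. Leaving out any array other than TGFb array 3 ended that call (change -1.55 to -0.88, adjusted p up to 0.129).

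The catalytic subunit Prkacb read 4.55, 4.64 and 4.71 with TGFb and 4.80, 4.87 and 4.68 without, a change of -0.15 ± 0.15 with scan day (limma adjusted p = 0.566). The regulatory subunit Prkar1a, which holds the kinase inactive in the absence of cAMP, read 5.29, 5.71 and 5.87 against 5.68, 5.53 and 6.47. Its groups overlapped and its change was -0.50 ± 0.16 with scan day (limma adjusted p = 0.125). None of the 4 regulatory subunits passed in either fit, with changes from -0.54 to 0.016 with scan day.

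**Figure D3:**
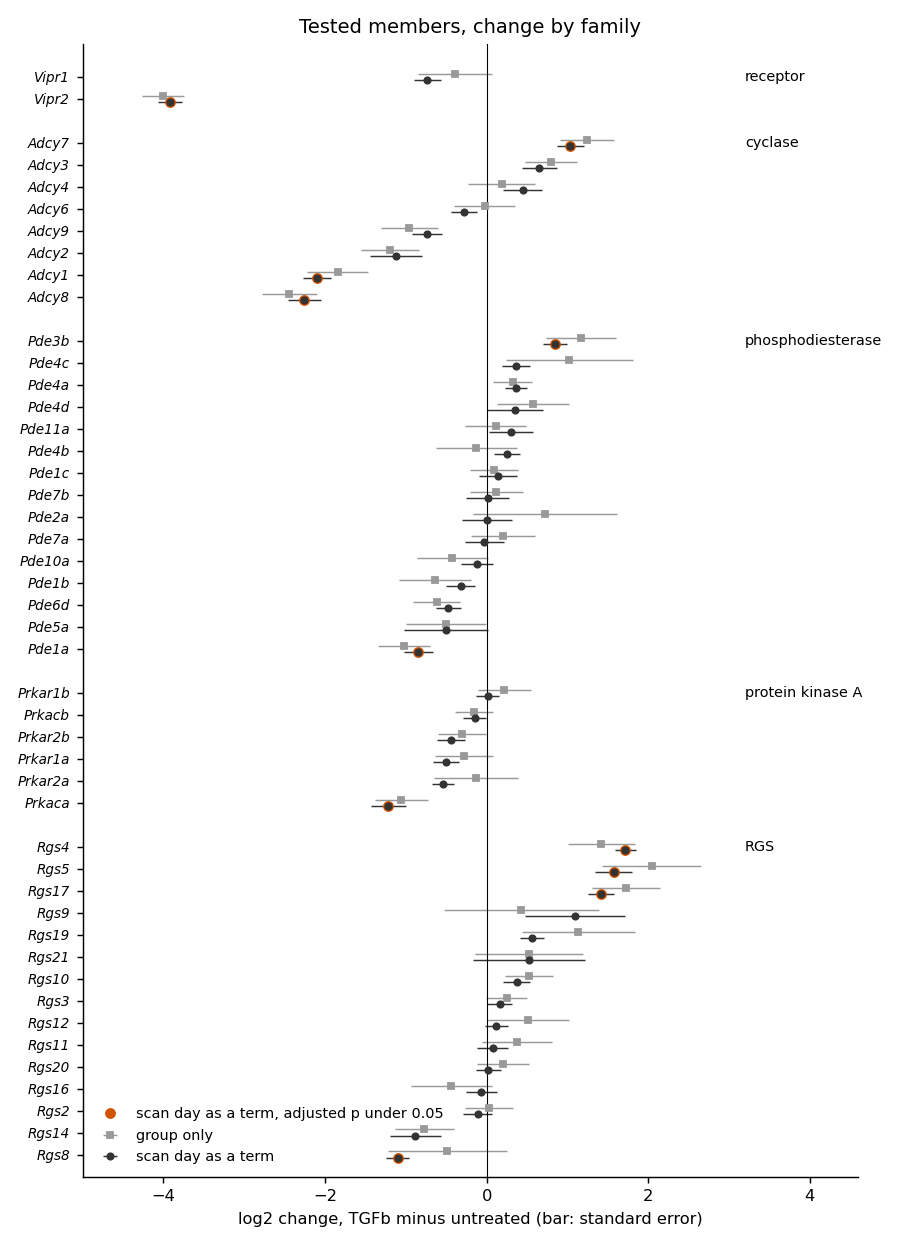
Log2 change, TGFb minus untreated, of the 46 tested members by family, from the limma fits without (grey squares) and with scan day as a term (black circles); bars are standard errors and orange rims mark an adjusted p under 0.05 with scan day. Vipr2 stands lowest at -3.92 and Rgs4 highest at 1.72 with scan day.

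The RGS family had 21 genes, of which 15 were tested. None passed without scan day. With scan day 3 rose, Rgs4, Rgs5 and Rgs17, and 1 fell, Rgs8, a share of 26.7%, against 10.1% of all genes. The median change of the family with scan day was 0.16.

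Rgs4, of the R4 subfamily and active on Gi and Gq, read 2.10, 1.22 and 1.17 with TGFb and 0.32, 0.42 and -0.51 without. All TGFb arrays were higher, and in both groups day 1 was the higher day. The change was 1.42 ± 0.41 without scan day (limma adjusted p = 0.23), and Rgs4 rose by 1.72 ± 0.13 with it (limma adjusted p = 0.00322), a 3.29-fold difference. Within days the differences were 1.74 and 1.70. The call with scan day held whichever array was left out (highest adjusted p 0.0486).

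The other Rgs4 probe had the same direction of change but another scan-day pattern. It read 0.36, 1.99 and 2.12 with TGFb and -1.10, -1.19 and 0.67 without, so here day 2 was the higher day in both groups. Its change with scan day was 1.44 ± 0.15 (limma over all probes, adjusted p = 0.00746). The probes lie at 171672488 to 171672547 and 171671609 to 171671668 on chromosome 1 (mm9).

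Rgs5, an R4 protein widely used as a marker of pericytes, read 3.52, 4.46 and 5.13 with TGFb and 1.75, 1.86 and 3.37 without. The groups did not overlap, although the highest untreated array came close to the lowest TGFb array. The change was 2.05 ± 0.61 without scan day (limma adjusted p = 0.248), and Rgs5 rose by 1.57 ± 0.23 with it (limma adjusted p = 0.0168), with 1.72 and 1.43 within days. The call was lost without TGFb array 1 or any untreated array (change 1.43 to 1.74, adjusted p up to 0.121).

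Other markers of pericytes and smooth muscle did not all move with Rgs5. Of the 6 markers, 4 were tested, and Kcnj8 and Myh11 were not well above background on any array. Abcc9 fell, from 0.49, 0.72 and 0.61 to -2.05, -2.24 and -1.78 (change -2.63, limma adjusted p = 0.0149 without scan day). Pdgfrb (0.92, adjusted p = 0.0684) and Cspg4 (0.58, adjusted p = 0.0763) did not pass in limma with scan day. The summed level of the list, Rgs5 included, was 4.08 to 5.38 with TGFb and 2.88 to 4.00 without. The sum adds unlogged signals, and Rgs5 was the brightest gene of the list on every array. It therefore largely repeats the Rgs5 values and is no separate measure of such cells. The part of such cells in the Rgs5 result was not tested.

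Rgs17, of the RZ subfamily and known to act on Gi and Gz, read 2.98, 3.86 and 4.15 with TGFb and 1.65, 1.71 and 2.46 without. Every TGFb array was higher. The change was 1.72 ± 0.42 without scan day (limma adjusted p = 0.162), and Rgs17 rose by 1.42 ± 0.16 with it (limma adjusted p = 0.00797), with 1.29 and 1.55 within days. Leaving out TGFb array 1 or any untreated array ended the call (change 1.29 to 1.55, adjusted p up to 0.0939).

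Rgs8 read -2.52, -0.68 and -0.60 with TGFb and -1.28, -1.49 and 0.43 without. The groups overlapped when the days were pooled, but on each day the TGFb values were lower. The change was -0.48 ± 0.74 without scan day (limma adjusted p = 0.82), and Rgs8 fell by 1.10 ± 0.14 with it (limma adjusted p = 0.0121), with -1.13 and -1.07 within days. Leaving out TGFb array 1 or any untreated array ended the call (change -1.14 to -1.05, adjusted p up to 0.104). The dimmer Rgs8 probe had the same direction, -1.51 ± 0.37 with scan day, but was well above background on only 1 TGFb array and did not pass (limma over all probes, adjusted p = 0.0713).

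**Figure D4:**
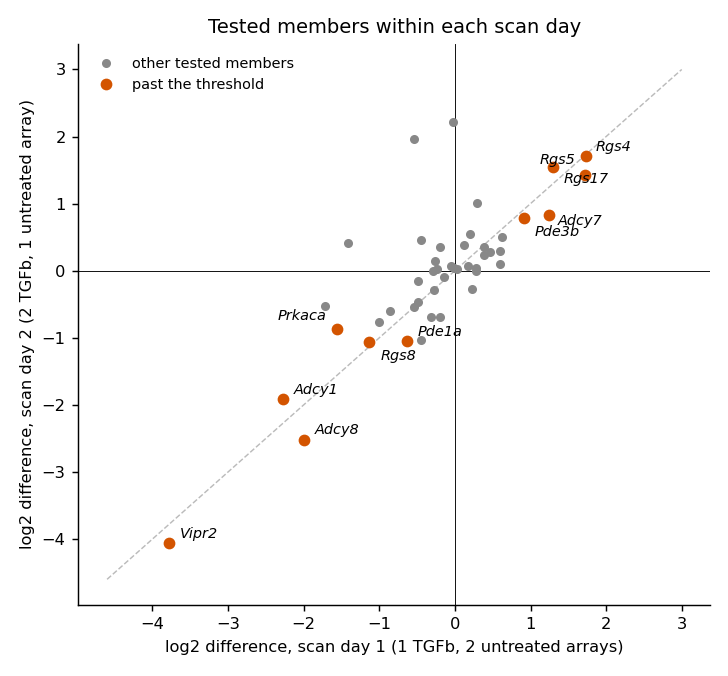
Log2 difference, TGFb minus untreated, of each tested member on scan day 1 (horizontal axis; 1 TGFb and 2 untreated arrays) against scan day 2 (vertical axis; 2 TGFb arrays and 1 untreated array); the dashed line marks equal differences and orange points passed the threshold with scan day. Vipr2 lies at -3.78 and -4.06 and Rgs4 at 1.74 and 1.70; the days share no array, and the orange points were chosen on the same arrays.

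Several RGS genes known for rapid induction did not pass. Rgs2, which acts mainly on Gq, read -0.57, -0.22 and 0.17 with TGFb and -0.29, -0.38 and -0.04 without, a change of -0.11 ± 0.18 with scan day (limma adjusted p = 0.743). Rgs16 read 3.28, 2.17 and 2.56 against 3.55, 3.54 and 2.23, a change of -0.064 ± 0.19 (limma adjusted p = 0.863). Their groups overlapped, and the within-day differences of each had opposite signs.

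Rgs3 and Rgs12 also overlapped. Rgs3 read 3.90, 3.95 and 4.14 with TGFb and 3.69, 3.57 and 4.00 without (0.16 ± 0.15 with scan day, limma adjusted p = 0.546). Rgs12, a large scaffolding RGS protein, read 4.33, 5.38 and 5.52 against 4.16, 4.15 and 5.38 (0.12 ± 0.14, limma adjusted p = 0.622). Rgs21 had no usable spot on TGFb array 3, so its fit rests on 5 arrays.

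The Rgs20 probes gave different answers. The brighter probe, at 4900008 to 4900067 on chromosome 1 (mm9), read 2.61, 3.00 and 3.34 with TGFb and 2.56, 2.62 and 3.15 without, a change of 0.023 ± 0.16 with scan day (limma adjusted p = 0.946). The dimmer probe, at 4900050 to 4900109 and so partly over the same bases, read -4.89, -3.92 and -3.99 with TGFb, all well above background. Its untreated values of -7.56, -6.19 and -7.78 were not. On that probe the TGFb level was at least 2.44-fold higher, the mean of the TGFb arrays over the dimmest signal that counts as well above background on each untreated array. The measured means behind that bound were -4.27 with TGFb and -7.18 without. The probe entered the fits only through the TGFb arrays, so no test of it is given.

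Of the 21 RGS genes, 11 lay on chromosome 1 by their probe coordinates. Rgs5 and Rgs4 are neighbours there, with probes 49.41 kb apart, and both rose with scan day. Rgs8 and Rgs16 lie 47.45 kb apart; Rgs8 fell and Rgs16 had a change of -0.064. In the group that holds Rgs2, Rgs13, Rgs1, Rgs21 and Rgs18, Rgs2 and Rgs21 were tested and neither passed.

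Other receptors that signal through cAMP moved in both directions. Of 17 tested, Adcyap1r1 rose and Mc4r fell without scan day. With scan day Adcyap1r1 and Ptger4 rose, and Mc4r and Adrb1 fell. Over all genes 1.4% passed without and 10.1% with scan day. The median change with scan day was -0.29.

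Adcyap1r1, the PAC1 receptor that binds PACAP, read -0.23, -0.28 and -0.18 with TGFb and -3.52, -3.46 and -3.99 without. The groups were far apart in the direction opposite to Vipr2. It rose by 3.42 ± 0.27 (limma adjusted p = 0.0111), and by 3.51 ± 0.17 with scan day (limma adjusted p = 0.00159), a call that held whichever array was left out (highest adjusted p 0.0263). Without scan day the call was lost without TGFb array 2 or 3 or untreated array 1 or 2 (adjusted p up to 0.129). Of the 3 receptors for VIP and PACAP, Vipr2 fell, Vipr1 did not pass and Adcyap1r1 rose. The peptides themselves, Vip and Adcyap1, were too dim to be tested.

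Mc4r, a melanocortin receptor, read -3.09, -3.91 and -3.44 with TGFb and -1.21, -1.07 and -1.41 without, a fall of 2.25 ± 0.31 (limma adjusted p = 0.0326). That call was lost whichever array was left out, and with scan day it was lost without untreated array 3 (adjusted p = 0.0709). With scan day the adrenergic receptor Adrb1 fell by 1.34 ± 0.16 (limma adjusted p = 0.00949), and the prostaglandin E receptor Ptger4 rose by 1.15 ± 0.15 (limma adjusted p = 0.0127). The Adrb1 call was lost without untreated array 2 or 3 (adjusted p up to 0.0951). The Ptger4 call was lost without TGFb array 1 or any untreated array (up to 0.114).

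**Figure D5:**
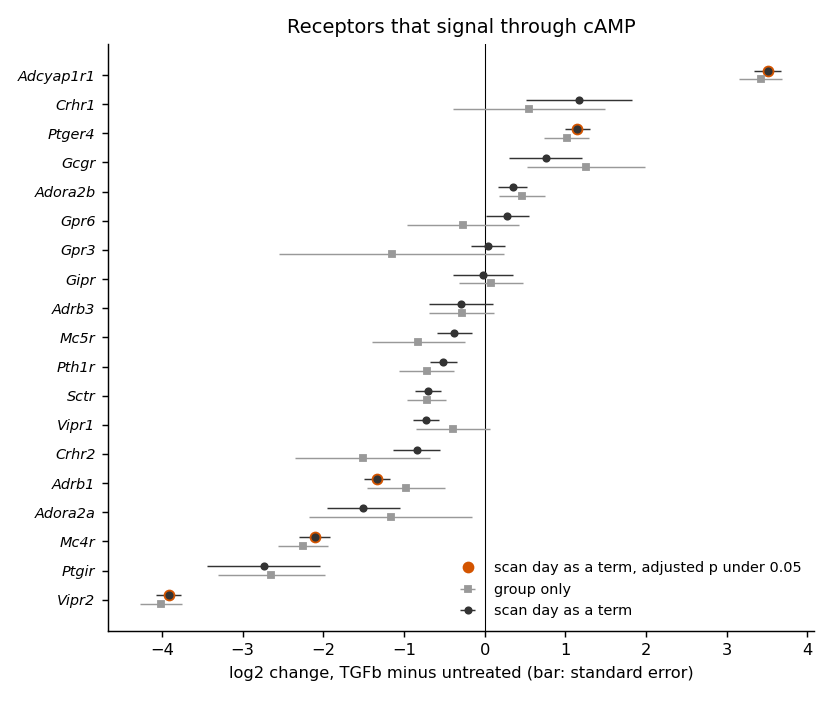
Log2 change, TGFb minus untreated, of the described receptors that signal through cAMP, Vipr1 and Vipr2 included, from the limma fits without (grey squares) and with scan day as a term (black circles); bars are standard errors and orange rims mark an adjusted p under 0.05 with scan day. Adcyap1r1 stands at 3.51 and Vipr2 at -3.92.

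The A-kinase anchoring proteins tether protein kinase A to sites in the cell. Of 11 tested, Akap12 rose without scan day (1.72 ± 0.26, limma adjusted p = 0.0419). It read 0.46, 0.68 and 0.76 with TGFb and -1.31, -1.04 and -0.90 without, and the call was lost whichever array was left out (adjusted p up to 0.285). With scan day Akap12 rose by 1.63 ± 0.15 (limma adjusted p = 0.00487), and Akap6, which anchors the kinase at the nuclear envelope of muscle cells, fell by 1.74 ± 0.19 (limma adjusted p = 0.00681). Both of these were lost without TGFb array 1 or untreated array 3 (adjusted p up to 0.0879). Akap11 fell by 0.91 ± 0.18 (limma adjusted p = 0.0365), a call that held only without TGFb array 3. Of all genes 1.4% passed without scan day and 10.1% with it.

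Among genes known as CREB targets, 1 of 10 tested passed without scan day, against 1.4% of all genes. With scan day 1 rose and 1 fell, against 10.1% of all genes called. Nr4a2, an orphan nuclear receptor, read 2.77, 2.32 and 1.94 with TGFb and -0.18, -0.18 and -0.93 without. It rose by 2.77 ± 0.36 (limma adjusted p = 0.0277), a call lost whichever array was left out, and by 3.00 ± 0.17 with scan day (limma adjusted p = 0.00188), a call that held in all 6 such fits. Ppargc1a, a coactivator of mitochondrial genes, fell with scan day only (-0.83 ± 0.18, limma adjusted p = 0.0463), and only TGFb array 3 could be left out without losing it. The median change of the list with scan day was -0.030.

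None of the 13 tested G protein alpha subunits passed in either fit, where 1.4% of all genes passed without and 10.1% with scan day. Among 15 tested effectors and inhibitors, Rapgef3, the cAMP-activated exchange factor EPAC1, rose with scan day (1.11 ± 0.15, limma adjusted p = 0.0132). Popdc2, a cAMP-binding membrane protein of muscle, fell (-0.98 ± 0.19, limma adjusted p = 0.0369). Among 15 tested receptor kinases, arrestins and other G protein regulators, Rgs7bp, which anchors R7 RGS proteins to membranes, rose with scan day (1.24 ± 0.14, limma adjusted p = 0.00827), Gpsm3 rose (1.03 ± 0.18, adjusted p = 0.0287) and Grk2, a receptor kinase, fell (-0.79 ± 0.15, adjusted p = 0.0314). None of these 5 passed without scan day. With scan day Rapgef3, Popdc2 and Rgs7bp were lost without TGFb array 1 or any untreated array (adjusted p up to 0.232), and Gpsm3 and Grk2 without any array but TGFb array 3 (up to 0.211).

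Of 8 myoblast markers, 7 were well above background on all 6 arrays, Pax7, Myod1 and Myog among them, and Myf5 was not tested. Desmin fell with scan day (-1.28, limma adjusted p = 0.0101), and no other marker of the list passed. All 7 tested had a negative change with scan day, with a median of -0.51, where it was 0.044 over all genes. For Desmin, Cdh15 and Myog every TGFb array was below every untreated array. The summed marker level was 9.01 to 9.75 with TGFb and 9.38 to 9.98 without. These ranges overlapped with days pooled, but within each day the sum was lower with TGFb. Some markers of other cell types were measured as well. Of 7 endothelial markers 3 were well above background on all 6 arrays (Pecam1, Kdr and Vwf) and 3 on none (Tek, Emcn and Tie1). Of 7 fibroblast markers 4 were on all 6 (Pdgfra, Ly6a, Cd34 and Pi16) and 2 on none (Dpt and Mfap5). Of 7 haematopoietic markers 3 were on all 6 (Itgam, Csf1r and Laptm5) and 2 on none (Cd68 and Cd53).

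For these 3 lists the summed levels overlapped between groups only with scan days pooled. Within each day the fibroblast and haematopoietic sums were higher with TGFb, the haematopoietic by little on day 1, and the endothelial sums were lower. Itgam was higher and Kdr lower on day 2 in both groups, so pooling the days widened the haematopoietic and endothelial ranges. Within days Itgam differed by 0.0043 and 0.72, and Cd34 by 0.64 and 0.51, each the brightest of its list. Kdr differed by 0.065 and 0.49, and Vwf by -1.36 and -1.23. The summed levels were -0.50 to 1.74 with TGFb and -0.025 to 2.06 without for endothelial markers. They were 1.46 to 2.38 and 1.01 to 1.74 for fibroblast, and 4.16 to 6.89 and 4.08 to 6.07 for haematopoietic markers. With scan day Vwf, an endothelial marker, fell (-1.30, limma adjusted p = 0.0064) and Laptm5, a haematopoietic marker, rose (1.00, limma adjusted p = 0.0337). Glial markers, -0.61 to 0.58 and 0.18 to 0.94, also overlapped only with days pooled, and their sums were lower with TGFb within each day. None of the 3 glial markers tested passed. No adipocyte marker was tested, and the summed level of that list was -4.47 to -3.35 with TGFb and -5.13 to -4.50 without. These ranges did not overlap, but only Fabp4 was well above background on any array, on 2 TGFb arrays. The untreated sum thus holds only signals below background. The part of other cell types in the results was not tested.

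The authors' deposited table of normalized log2 values gave more calls. With group as the only term, limma on these values called 7 members higher and 11 lower (39.1%), where 15.1% of all genes passed, 7.21% higher and 7.84% lower. These 18 held all 11 members called on the scanner values with scan day. The other 7 were Adcy2, Adcy9, Pde6d, Rgs14 and Vipr1, which were lower, and Pde4a and Rgs19, which were higher. Vipr2 changed by -2.64 there (limma adjusted p = 0.000131), less than in the scanner values, and Adcy8 by -1.09 (limma adjusted p = 0.00158). The leading component of that table (57.3%) split the groups.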

How the data were processed

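Each array has a scanner file deposited by the authors. Per the file headers, its spot intensity was extracted with Agilent Feature Extraction 10.7.3.1, background subtracted, with probe coordinates in mm9. The authors also deposited a table of log2 values whose normalization and centring are not given in the sources used here; its column medians were 6.99 to 7.00, each column correlated with its own array's log2 mean signal (r 0.992 to 0.993), and it served as an alternative.

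Control spots and 176 to 365 outlier spots per array were left out. Log2 processed intensity minus the array's 75th percentile was averaged over spots of a probe. A probe was tested if well above background on at least 3 of 6 arrays, and the probe with the highest mean represented its gene. Accessions of 26300 of 55681 probes were in the RefSeq table, which changed 2839 names. TGFb minus untreated was fitted with limma 3.58.1 in R 4.3.3 (lmFit, eBayes; two-sided), Benjamini-Hochberg over all 21960 genes, threshold 0.05, and was tested on simulated data. Probe-level p-values came from fits over all probes. At most 77 of 59305 spots of an array were saturated, and 6 arrays limit the precision.

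Members, lists and tests were chosen with earlier results of these data known. Values on every array are given for members past the threshold in either fit, for members above background in 1 group only, for the 2 brightest tested members of each family, and for 11 members whatever their values; from each list, up to 4 genes with the smallest adjusted p are named. A gene of the receptor list is not reported here. Alternatives were scan day, slide or replicate number as a term, quantile normalization, normexp background (offset 50), the deposited table, other filters and probe rules, each array left out, and untreated arrays 1 and 2 averaged.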

Additional observations from a re-analysis of the deposited data

How the results depend on the processing

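Without scan day, 0 members rose and 2 fell. With slide as a block, with normexp background and with the mean over a gene's probes 1 rose, where 370, 182 and 188 rose over all genes. On the deposited values 7 rose and 11 fell, where 1584 and 1722 did over all genes. Adding scan day gave 5 that rose and 6 that fell, where 1011 and 1216 did over all genes. With untreated arrays 1 and 2 averaged 0 fell, as limma then called 0 genes in all (1459 at an unadjusted p under 0.05). Deviations of same-numbered arrays from their group means correlated at 0.81, -0.72 and 0.69. Scan day remained in these deviations, and only the arrays numbered 1 and those numbered 3 shared a scan day. The correlations therefore cannot show whether the replicate numbers pair the samples. With the replicate block 0 members fell, as 2 genes rose and 0 fell over all genes (2955 at an unadjusted p under 0.05). Leaving out 1 array at a time gave 0 to 1 that fell and 0 that rose. In 3 of these fits limma called 0 genes in all, with 1467 to 1640 at an unadjusted p under 0.05.

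With scan day, 5 rose and 6 fell. Leaving out 1 array at a time gave 1 to 6 that rose and 2 to 8 that fell, and averaging untreated arrays 1 and 2 gave 1 and 3. Counts over all genes moved as well, from 1011 and 1216 to between 147 and 1527 that rose and 182 and 1793 that fell, and to 323 and 351 with averaging. Vipr2, Adcy1 and Rgs4 passed in all 6 fits that left out an array.

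Of 721 values of the 24 named members under alternatives, 632 kept their side of the threshold, 53 lost a call, 28 gained one and 8 within-day values moved by more than the spread between replicates. No called value changed sign, but 35 values that passed neither in the main fit nor in the alternative did. Dim probes such as Adcy8 in TGFb arrays are less certain than bright ones.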

Other observations

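Scan day moved some members more than TGFb did. Among others, Pde2a, Pde4c, Prkar2a, Rgs8, Rgs11, Rgs12 and Rgs19 had higher values on every array of day 2 than on every array of day 1. Pde4b and Rgs16 had lower ones. The dimmest Rgs19 probe went the other way, with 1.69, 1.49 and 1.43 on day 1 and 0.28, 0.77 and -0.18 on day 2. The split was general, as the first component over all genes (72.4%) also followed scan day. The Rgs4 probes followed scan day in opposite directions while both were higher with TGFb within each day.

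In the deposited table the SD of differences over genes was 0.20 between untreated arrays 1 and 2, 0.37 to 0.38 between these and untreated array 3, and 0.41 to 0.48 among TGFb arrays. In the scanner values the corresponding SDs were 0.33, 1.51 to 1.54 and 0.73 to 1.53. How the table was normalized is not known here.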
